A study of Mus musculus with 9 samples.

Results

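Cytosolic heat shock chaperones are described here across the hypothalamus of weanling mice whose dams ate a high-fat high-sucrose or a low-fat diet. They are 10 genes: Hspa1a, Hspa1b and Hspa8 of the HSP70 family, Hspa4 and Hsph1 of the HSP110 family, the J-domain co-chaperones Dnajb1 and Dnaja1, Hsp90aa1 and Hsp90ab1 of the HSP90 family, and the small heat shock protein gene Hspb1. Members were taken by gene name from a count table of 54532 genes. They were chosen by their counts in the HP and LP groups defined next, as part of a list of cytosolic heat shock proteins that had stood higher in HP, so values of HP against LP are given as a description with no test. All 10 were among the 17546 genes that passed the filter on low counts.

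RNA came from male pups of ICR mice, an outbred wild-type stock, at 21 days of age, with 3 libraries in each of 3 groups. HA pups had dams fed HFHS, a high-fat high-sucrose diet with 45% of its energy as fat, and received 4-PBA, a chemical chaperone and histone deacetylase inhibitor. HP pups had dams on the same HFHS diet and received PBS, the vehicle. LP pups had dams fed LFD, a low-fat diet with 10% of its energy as fat, and received PBS. All 3 groups were injected peripherally once a day on postnatal days 4 to 16, and all litters held 10 pups. Diets began when dams were 5 weeks old, 5 weeks before mating, and were kept through gestation and lactation. No group combined LFD with 4-PBA, so an effect of 4-PBA can be read only on the HFHS diet. Whether pups of 1 group were littermates is not stated, and the p-values speak only of the scatter among these libraries, part of which may be technical.

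Heat shock chaperones bind unfolded protein and help it to fold, to be held soluble or to be passed on for degradation. HSP70 proteins hold and release short stretches of a client in a cycle of ATP hydrolysis, which J-domain proteins start and HSP110 proteins reset by exchanging the nucleotide. HSP90 proteins take partly folded clients, among them steroid hormone receptors and kinases, from HSP70, and small heat shock proteins hold unfolded clients without ATP. Hspa8, Hsp90ab1 and Hspa4 are made at all times in most cells, neurons included, while Hspa1a, Hspa1b, Dnajb1, Hsph1 and Hspb1 are classic genes of the heat shock response. That response is switched on by the transcription factor HSF1, which binds inverted repeats of the letters GAA and TTC upstream of its targets.

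Total counts lay between 18226924 and 21823961 per library, and markers of the hypothalamus were present in every library, with at least 162 counts for Agrp and 8188 for Avp. Markers of other tissue differed between libraries. The 7 meningeal fibroblast markers, none of them at 0 in any library, summed to 63.2, 75.9 and 725 CPM (counts scaled to a common library total) in HA, to 60.7, 87.5 and 114 CPM in HP and to 56.4, 68.9 and 368 CPM in LP, so that replicate 3 of HA and of LP stood apart. The 6 striatal markers, also all detected, summed to 133 to 148 CPM in HA, 138 to 148 CPM in HP and 258, 354 and 142 CPM in LP, with LP replicates 1 and 2 high. Markers of blood cells, of which 4 of 5 passed the filter, were highest in HA replicate 3 (90.2 CPM summed) and lowest in HP replicate 3 (15.5 CPM). The 6 myelin markers of oligodendrocytes, all detected, summed to 19180, 13940 and 11340 CPM in HA, 19170, 19990 and 16720 CPM in HP and 12910, 20130 and 14610 CPM in LP. All 6 had a higher estimate in HP than in LP (median log2 fold change 0.21) and a lower one in HA than in HP (-0.32) and in HA than in LP (-0.11), and 0 of 6 were called by edgeR or had an unadjusted p under 0.05. In this bulk tissue, a different share of cells of a type and a different amount of RNA per cell cannot be told apart. Titles also carry a code of unstated meaning, Hg43 or Hg13 in HA and HP and Lg42 or Lg63 in LP, so code and diet cannot be told apart against LP.

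The sequences shown next are stretches around the start sites that hold the letters HSF1 is known to bind. These letters were not read in choosing the members. The list is one of heat shock genes, though, and includes classic genes of the response that HSF1 switches on. A share above that of all genes therefore follows in part from the kind of list. Start-site windows from 250 bases before to 50 after each RefSeq start (GRCm38.p6) were at hand for 7 of the 10 members, all but Hspa8, Hsp90aa1 and Hsp90ab1. The 7 had 11 windows between them. The inverted pair GAANNTTC or TTCNNGAA, each of which reads the same on both strands, occurred in 5 of the 7 (71.4%), against 4587 of 27025 genes in the table (17.0%) and 4946 of 32851 windows (15.1%). A longer run of 3 units, GAANNTTC followed after NN by a further GAA, searched on both strands and containing both pairs, occurred in 1 of the 7 members (Hsph1) and in 0.662% of genes. Windows of Dnajb1 and Hspa4 held neither. Stretches are written 5′ to 3′ on the strand of the gene, with the matched letters in capitals.
Hspa1a, chr17:34972227-34972286, minus strand: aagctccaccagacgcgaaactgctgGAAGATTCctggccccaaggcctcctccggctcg
Hspa1b, chr17:34959309-34959368, minus strand: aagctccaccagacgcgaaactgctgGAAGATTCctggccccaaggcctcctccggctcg
Hsph1, chr5:149636354-149636377, minus strand: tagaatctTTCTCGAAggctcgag
Hsph1, chr5:149636287-149636308, minus strand: gctgcagaTTCTGGAAAGTTCt
Dnaja1, chr4:40722336-40722359, plus strand: agcctctaGAAAATTCtacgaggc
Hspb1, chr5:135887776-135887855, plus strand: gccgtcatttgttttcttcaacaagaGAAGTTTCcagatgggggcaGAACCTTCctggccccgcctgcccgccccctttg

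The pair in Hspa1a and in Hspa1b began 104 bases before the start. Their 300-base windows differed at 4 bases (98.7% identity), and the 60 bases shown are the same, so these genes are not separate finds of the pair. In Hsph1 one match lay 33 bases before the start and the run of 3 units began 36 bases after it, both inside the deposited gene model. Hspb1 carried 2 pairs, 117 and 97 bases before the start, and the Dnaja1 pair lay 124 bases before the RefSeq start but inside the deposited gene model, which begins further upstream. A match of letters is a description and not a bound site. Among 84 related chaperone genes with a window, 20 (23.8%) held the pair and 4 (4.76%) the run of 3 units.

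Per gene length, the members spanned a wide range of levels. The authors' FPKM values, which divide each count by gene length as well as by library size, averaged 499 FPKM for Hsp90ab1, 357 FPKM for Hsp90aa1 and 276 FPKM for Hspa8 over the 9 libraries. Hsp90ab1 and Hspa8 are the constitutive forms, and Hsp90aa1, though inducible, is known to be abundant in unstressed brain. Hspa4 (59.6 FPKM), Hsph1 (57.2 FPKM) and Dnaja1 (50.4 FPKM) came next, and the ranges over libraries of Hsph1 overlapped with those of Hspa4 and of Dnaja1, which did not overlap with each other. Dnajb1 followed at 35.9 FPKM, with a range of 27.8 to 42.4 FPKM that touched none of its neighbours. Hspb1 (11.99 FPKM) and Hspa1b (7.46 FPKM) overlapped, and Hspa1a was lowest at 1.42 FPKM. Hsp90ab1 stood above 99.8% of tested genes by FPKM and Hspa1a above 27.6%. By these values the stress-inducible HSP70 genes stood at low levels beside the constitutive Hspa8. Whether reads that match more than 1 gene were counted is not stated. Leaving them out would lower genes that share sequence with others, Hspa1a and Hspa1b among them.

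**Figure D1:**
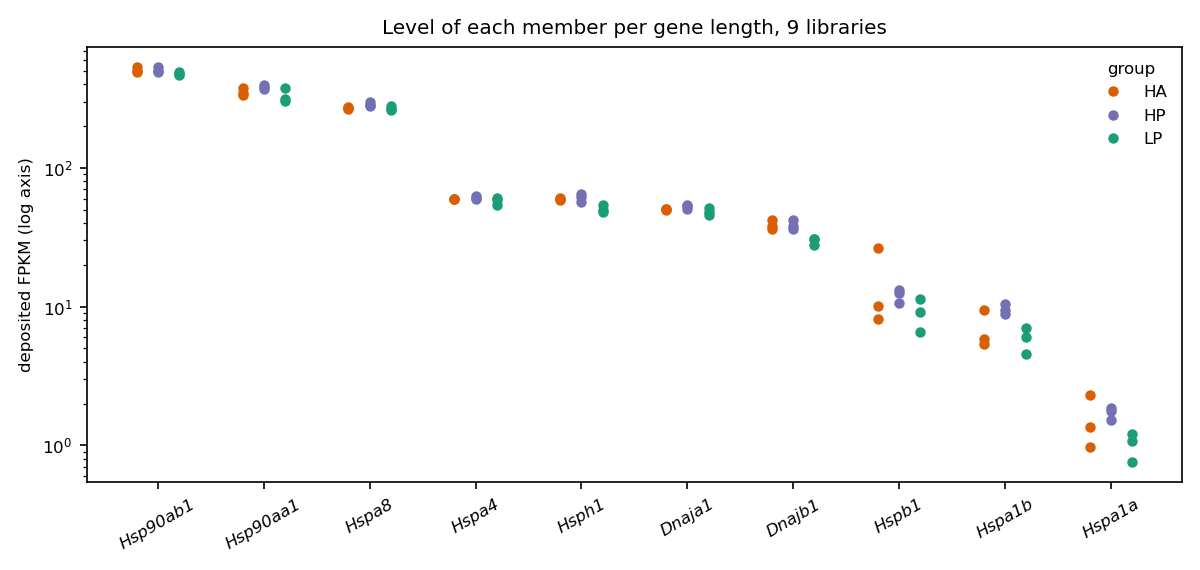
Deposited FPKM (log axis) of each member, 1 point per library, with HA, HP and LP side by side; members run from the highest mean over 9 libraries, Hsp90ab1, to the lowest, Hspa1a. The ranges overlap between neighbours for Hspa4 and Hsph1, Hsph1 and Dnaja1, and Hspb1 and Hspa1b.

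Across the groups, all 10 members had a higher estimate in HP than in LP, as did 49.1% of all genes tested, with log2 fold changes from 0.09 to 0.76 and a median of 0.24, which is the pattern they were chosen for. In HA the members did not stand together. Hsph1, Dnajb1 and Hsp90ab1 lay above every LP library in every HA library and close to HP, which makes 3 of 10 where 5.4% of all genes did so. Hspa8 and Hspa4 lay below every HP library in every HA library, which makes 2 of 10 where 5.89% of all genes did so. The members were chosen for high HP and low LP values in these same libraries. Both counts are therefore partly fixed by the choice, which the shares over all genes are not. Hspa1a, Hspa1b and Hspb1 were split, with HA replicate 3 high and replicates 1 and 2 low. The members' summed share of all counts was 0.563%, 0.537% and 0.551% in HA, 0.574%, 0.573% and 0.553% in HP and 0.508%, 0.534% and 0.494% in LP, where 1 HA library was above 1 HP library and every HA library was above every LP library.

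**Figure D2:**
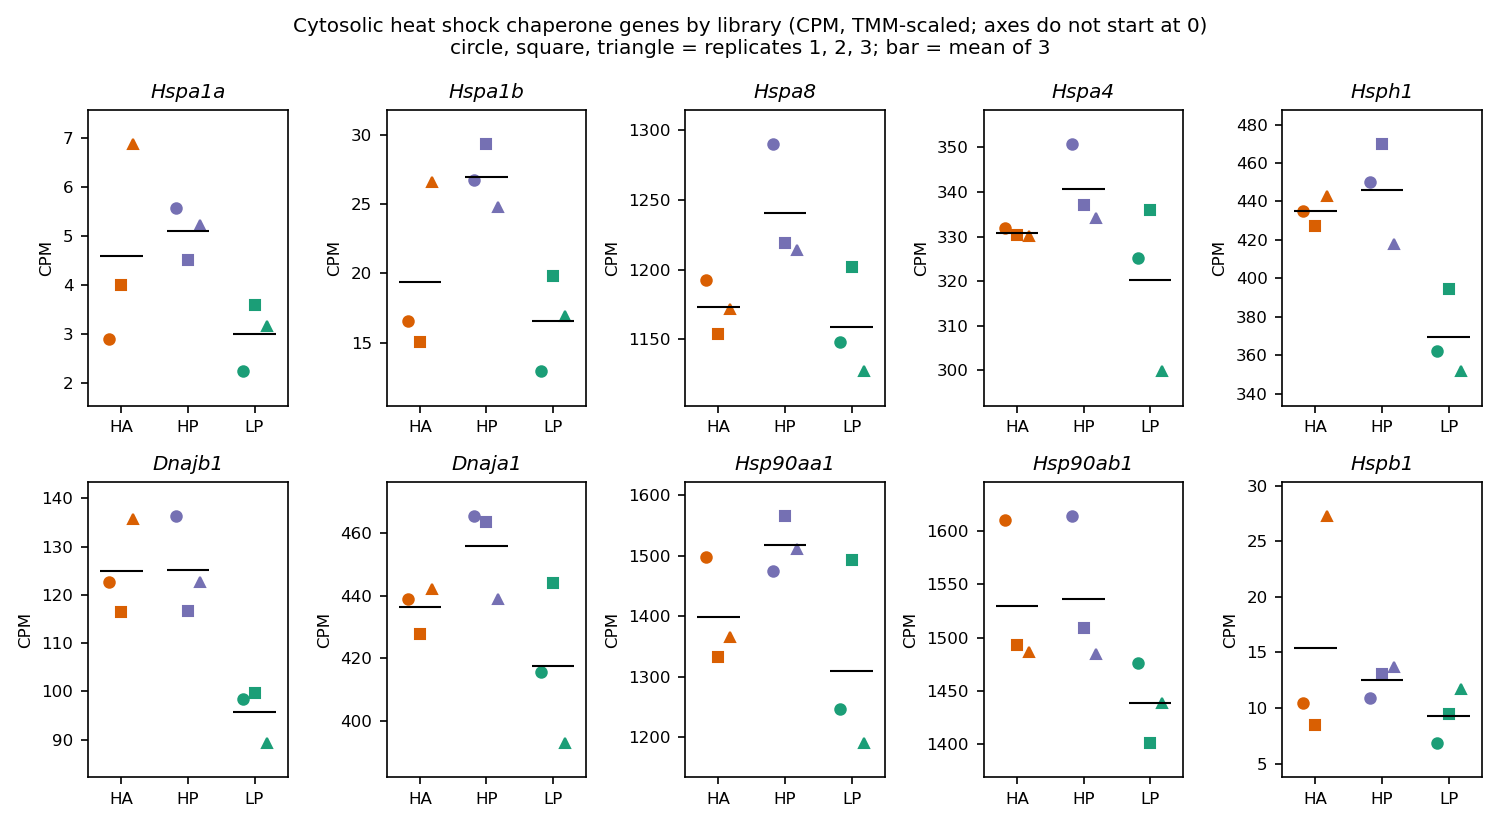
CPM of each member by group; circle, square and triangle are replicates 1, 2 and 3, bars are means of 3, and the vertical axes do not start at 0. HA replicate 3 is the high point of its group for Hspa1a, Hspa1b and Hspb1 (6.87, 26.6 and 27.3 CPM), while for Dnajb1 and Hsph1 all HA points lie above all LP points.

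Hspa1a and Hspa1b encode the stress-inducible HSP70, almost the same protein from neighbouring genes without introns on chromosome 17 (Hspa1a, ENSMUSG00000091971, 34969190 to 34972156, and Hspa1b, ENSMUSG00000090877, 34956436 to 34959238, both on the minus strand, in the coordinates of the deposited table). Hspa1a had 2.90, 4.01 and 6.87 CPM in HA, 5.57, 4.51 and 5.23 CPM in HP and 2.24, 3.60 and 3.17 CPM in LP, from 46 to 129 counts per library. Hspa1b had 16.5, 15.03 and 26.6 CPM in HA, 26.8, 29.3 and 24.8 CPM in HP and 12.9, 19.8 and 16.9 CPM in LP. For both genes all HP libraries were above all LP libraries, and HA replicates 1 and 2 lay below every HP library while replicate 3 lay within the range of HP (Hspa1b) or above it (Hspa1a).

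The log2 fold change of HP over LP was 0.76 ± 0.30 (SE) for Hspa1a and 0.71 ± 0.21 for Hspa1b, as a description. Of HA over HP it was -0.15 ± 0.29 for Hspa1a (edgeR quasi-likelihood test, adjusted p = 0.939) and -0.48 ± 0.21 for Hspa1b (edgeR, adjusted p = 0.84). Of HA over LP it was 0.61 ± 0.30 for Hspa1a (edgeR, adjusted p = 0.791) and 0.23 ± 0.21 for Hspa1b (edgeR, adjusted p = 0.867). HA libraries had no part in the contrast that chose the members, but the HP and LP libraries they are set against did, in these and all later tests. No difference of either gene passed. Without HA replicate 3, Hspa1a stood at -0.56 and Hspa1b at -0.77 for HA over HP (edgeR, adjusted p = 0.932 and 0.319), and Hspa1b at -0.07 for HA over LP.

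Reads of these genes can be split between them by the counting, or left out where they match both. Of all 50-base windows in Hspa1a transcripts, 66.3% also occur in transcripts of other genes, chiefly Hspa1b, and of those in Hspa1b 62.3% occur in Hspa1a. A sum over both genes does not depend on that split, but it would still lack any reads left out. In this sum HA libraries held 19.4, 19.0 and 33.5 CPM, HP libraries 32.3, 33.9 and 30.1 CPM and LP libraries 15.2, 23.4 and 20.1 CPM. The sum was highest in HP on average (23.99 ± 8.24 CPM in HA, 32.1 ± 1.90 CPM in HP, 19.6 ± 4.16 CPM in LP; SD, n = 3). Its log2 fold change was -0.42 ± 0.22 for HA over HP and 0.29 ± 0.22 for HA over LP (SE, edgeR, adjusted p = 0.839 and 0.84). Hspa1a also shares 564 exonic bases (19.0% of its own) with Gm20481 on the opposite strand, where reads cannot be told apart without strand. Gm20481 had 0 counts, which does not show whether reads of the shared stretch were left out.

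Hspa8 encodes HSC70, the constitutive HSP70, which also strips clathrin from synaptic vesicles and carries proteins to the lysosome (ENSMUSG00000015656, chromosome 9, 40800984 to 40810087, plus strand). It had 1193, 1154 and 1172 CPM in HA, 1290, 1219 and 1214 CPM in HP and 1148, 1202 and 1127 CPM in LP. All HA libraries and all LP libraries lay below all HP libraries, and HA and LP overlapped. The distances were small, with a log2 fold change of 0.10 ± 0.05 (SE) for HP over LP. For HA over HP it was -0.08 ± 0.05 (edgeR, adjusted p = 0.84) and for HA over LP 0.02 ± 0.05 (edgeR, adjusted p = 0.961). A share of 39.4% of its 50-base windows occurs in other transcripts, most of them of Gm15459.

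The HSP110 genes gave a small and a larger distance. Hspa4 encodes the constitutive exchange factor also known as Apg-2 (ENSMUSG00000020361, chromosome 11, 53259814 to 53300457, minus strand). It had 331.9, 330.4 and 330.2 CPM in HA, 350.7, 337.0 and 334.2 CPM in HP and 325.2, 335.9 and 299.7 CPM in LP. HA libraries were nearly equal to each other and below every HP library, and LP spread around them. Its log2 fold change was 0.09 ± 0.05 (SE) for HP over LP, -0.04 ± 0.05 for HA over HP (edgeR, adjusted p = 0.891) and 0.05 ± 0.05 for HA over LP (edgeR, adjusted p = 0.871).

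Hsph1 encodes HSP105, the heat-inducible exchange factor that also slows protein aggregation (ENSMUSG00000029657, chromosome 5, 149614287 to 149636376, minus strand). It had 435, 427 and 443 CPM in HA, 450.2, 469.7 and 417.8 CPM in HP and 362, 395 and 352 CPM in LP. Every HA and every HP library was above every LP library, and HA lay within the range of HP. The log2 fold change was 0.27 ± 0.06 (SE) for HP over LP and -0.04 ± 0.06 for HA over HP (edgeR, adjusted p = 0.92). For HA over LP it was 0.24 ± 0.06 and missed the threshold with edgeR (adjusted p = 0.645), while DESeq2 called it (adjusted p = 0.0412); over all settings and tools tried the adjusted p ran from 0.0412 to 0.91. None of the 50-base windows of Hspa4 or Hsph1 occurs in another gene, so their counts are the least open to misassigned reads.

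Dnajb1 had the largest log2 fold change over LP, in HA and in HP, among the 7 members other than Hspa1a, Hspa1b and Hspb1. It encodes HSP40, the heat-inducible J-domain protein that hands clients to HSP70 and takes part in dissolving aggregates with HSP110 (ENSMUSG00000005483, chromosome 8, 83608193 to 83612653, plus strand). Dnajb1 had 123, 117 and 136 CPM in HA, 136, 117 and 123 CPM in HP and 98.5, 99.6 and 89.2 CPM in LP. All HA and all HP libraries were above all LP libraries, and HA and HP covered nearly the same range. Means were 125 ± 9.79 CPM in HA, 125 ± 10.1 CPM in HP and 95.8 ± 5.71 CPM in LP (SD, n = 3).

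For HP over LP the log2 fold change of Dnajb1 was 0.39 ± 0.07 (SE). For HA over HP it was -0.0025 ± 0.07 (edgeR, adjusted p = 0.997), turning to 0.02 with library totals and to between -0.06 and 0.06 when single libraries were left out. For HA over LP it was 0.38 ± 0.07, which edgeR did not call (adjusted p = 0.434) and DESeq2 did (adjusted p = 0.00336), with a range of 0.00336 to 0.799 over all settings and tools. Leaving out HA replicate 3 gave 0.32 for HA over LP, and leaving out replicate 3 of both HA and LP, the libraries rich in meningeal markers, gave 0.28.

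Dnaja1 encodes the abundant, farnesylated J-domain partner of HSC70 (ENSMUSG00000028410, chromosome 4, 40722150 to 40737149, plus strand). It had 439, 428 and 442 CPM in HA, 466, 464 and 439 CPM in HP and 416, 444 and 393 CPM in LP. All 3 groups overlapped. Its log2 fold change was 0.13 ± 0.05 (SE) for HP over LP, -0.06 ± 0.05 for HA over HP (edgeR, adjusted p = 0.857) and 0.06 ± 0.05 for HA over LP (edgeR, adjusted p = 0.847). Its exons share 608 bases with Smu1 on the opposite strand, where reads cannot be told apart without strand, and 20.6% of its windows occur elsewhere.

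Of the HSP90 genes, Hsp90aa1 encodes the inducible form and Hsp90ab1 the constitutive form. Hsp90aa1 (ENSMUSG00000021270, chromosome 12, 110690605 to 110702728, minus strand) had 1498, 1332 and 1365 CPM in HA, 1474, 1565 and 1511 CPM in HP and 1246, 1493 and 1190 CPM in LP. LP replicate 2 reached the level of HP and HA replicate 1 did too, so all groups overlapped. The same 2 libraries had the highest sum of myelin markers in their groups, while HA replicate 3, with the lowest sum of all, had 1365 CPM of Hsp90aa1; the part of myelin content was not tested. Its log2 fold change was 0.21 ± 0.08 (SE) for HP over LP, -0.12 ± 0.08 for HA over HP (edgeR, adjusted p = 0.844) and 0.09 ± 0.08 for HA over LP (edgeR, adjusted p = 0.861). Windows shared with other transcripts, chiefly of Gm12346, made up 47.5%.

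Hsp90ab1 (ENSMUSG00000023944, chromosome 17, 45567775 to 45573271, minus strand) had 1610, 1493 and 1487 CPM in HA, 1614, 1509 and 1485 CPM in HP and 1476, 1401 and 1439 CPM in LP. HA and HP covered nearly the same range, above every LP library by a narrow margin. Its log2 fold change was 0.09 ± 0.06 (SE) for HP over LP and 0.09 ± 0.06 for HA over LP (edgeR, adjusted p = 0.818). For HA over HP it was -0.0057 ± 0.06 (edgeR, adjusted p = 0.99), and it was 0.01 with library totals and 0.02 without replicate 3 of HA and LP.

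Hspb1 encodes HSP25, the mouse counterpart of human HSP27, a small heat shock protein that also binds actin filaments and is found in vessel and connective tissue cells and in stressed neurons and glia (ENSMUSG00000004951, chromosome 5, 135887919 to 135889563, plus strand). It had 10.5, 8.45 and 27.3 CPM in HA, 10.9, 13.1 and 13.7 CPM in HP and 6.82, 9.43 and 11.7 CPM in LP. HA replicate 3 stood above all other libraries, and the groups overlapped in every pairing. The log2 fold change was 0.43 ± 0.39 (SE) for HP over LP, 0.29 ± 0.38 for HA over HP (edgeR, adjusted p = 0.908) and 0.73 ± 0.38 for HA over LP (edgeR, adjusted p = 0.808). Without HA replicate 3 the value was -0.40 for HA over HP and 0.03 for HA over LP. About 50.1% of its 50-base windows occur in other transcripts, nearly all of them in Hsp25-ps1.

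HA replicate 3 was the library with the highest sum of the meningeal fibroblast markers, and also of the endothelial, pituitary and blood cell markers. In it Hspb1 lay 1.24, Hspa1a 0.76 and Hspa1b 0.40 above their means over the 9 libraries on the log2 scale. LP replicate 3, second in the meningeal markers, had Hspb1 at 0.02, Hspa1a at -0.33 and Hspa1b at -0.25 on the same scale. HA replicate 3 itself raises the means used there. Within LP, Hspb1 was highest in replicate 3 (6.82, 9.43 and 11.7 CPM), while Hspa1a and Hspa1b were highest in replicate 2 (3.60 and 19.8 CPM). The part of meningeal, endothelial, pituitary or blood cells in the level of these genes in HA was not tested. Within the code Hg43, which has 2 HA and 2 HP libraries without the high markers, the difference of HA minus HP in mean log2 CPM was -0.54 for Hspa1a, -0.83 for Hspa1b and -0.34 for Hspb1. Within Hg13, with 1 library each, it was 0.39, 0.10 and 0.99 for the same genes. Hspa8, Hspa4 and Hsp90aa1 kept 1 sign in both codes, with -0.10, -0.05 and -0.11 in Hg43 and -0.05, -0.02 and -0.15 in Hg13, all as HA minus HP. The other 4 members had negative differences in Hg43 and positive ones in Hg13, from -0.10 to -0.01 and from 0.002 to 0.15.

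**Figure D3:**
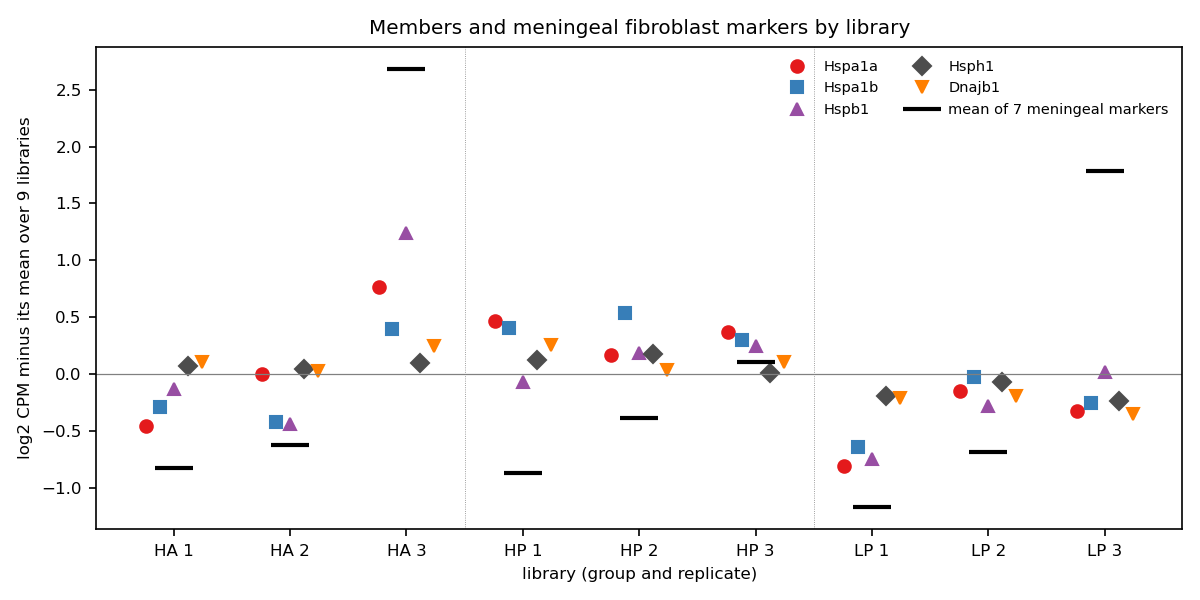
Log2 CPM of 5 members minus the mean of each over 9 libraries, by library, with the mean of 7 meningeal fibroblast markers as black bars. HA replicate 3 has the highest marker level (2.68) and the highest Hspb1 (1.24) and Hspa1a (0.76). In LP replicate 3 the markers stand at 1.78 and Hspb1 at 0.02, which is the highest Hspb1 of the LP libraries.

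As a count, 0 of 10 members passed the adjusted threshold of 0.05 with edgeR in HA against HP, where 0.0114% of all genes passed (2 of 17546), or in HA against LP, where 0% did. At an unadjusted p under 0.05, 1 member (Hspa1b) was lower in HA than in HP, against 2.42% of genes, and 2 (Hsph1 and Dnajb1) were higher in HA than in LP, against 3.06%. DESeq2 called 0 members in HA against HP (0.0479% of all genes) and 2 in HA against LP (0.129%), Hsph1 and Dnajb1. By limma-voom 0 of 10 were called in both, where 0.0114% and 0% of genes were. No calls are counted here for the members in HP against LP, the contrast they were chosen on.

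By the direction of the estimates, in HA against HP 9 of 10 were lower, against 49.1% of all genes, with a median log2 fold change of -0.05 beside 0.003 over all genes, and 7 of 10 were lower when libraries were scaled to their totals alone. In HA against LP 10 of 10 were higher, against 51.9% of all genes, with a median of 0.16 beside 0.006, and 9 of 10 without replicate 3 of HA and LP. These comparisons share libraries, since HA against HP uses the HP libraries that chose the list and HA against LP the LP libraries. Beside the members without overlap already named, 6 lay above LP in every HP library (5.93% of all genes), a count the choice fixed, and 0 lay above HP in every HA library (5.92%).

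**Figure D4:**
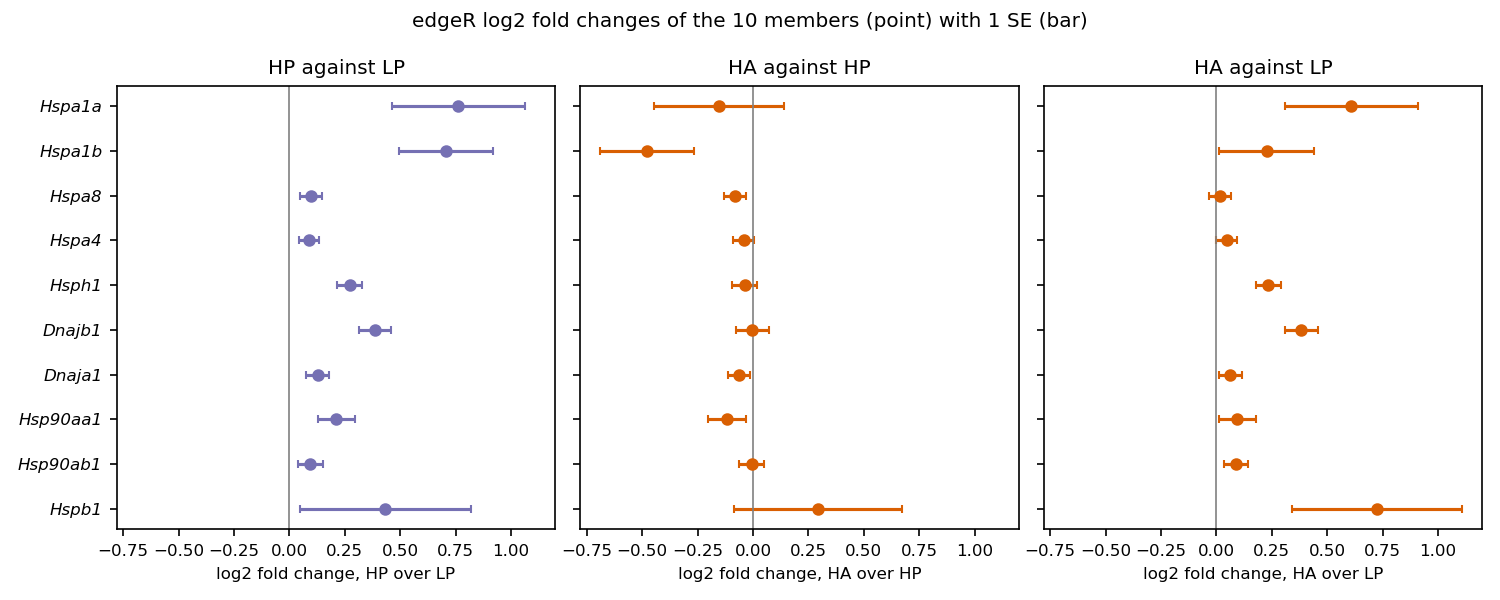
Log2 fold change of each member (point) with 1 SE (bar) from the edgeR fit over 9 libraries, for HP over LP, HA over HP and HA over LP. Estimates of HP over LP are all above 0, from 0.09 to 0.76; Hsph1 (0.24) and Dnajb1 (0.38) keep their distance in HA over LP, and the bars of Hspa1a and Hspb1 are the widest.

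Each member's log2 CPM was set against the mean of the other 9 over the 9 libraries. The choice of members for a shared distance between HP and LP fixes part of this likeness, so r is also given for deviations from the group means. Pearson's r was 0.91 for Dnaja1, 0.90 for Hsph1 and 0.87 for Dnajb1, between 0.72 and 0.80 for Hspa8, Hspa1b, Hspa4, Hsp90aa1 and Hspa1a, and 0.48 for Hsp90ab1 and 0.41 for Hspb1. With the group means taken out it was 0.83 for Dnaja1, 0.76 for Hspa8, 0.73 for Hsph1 and for Dnajb1, 0.61 for Hspa1b, 0.59 for Hspa4, 0.50 for Hsp90aa1, 0.35 for Hspa1a, 0.17 for Hspb1 and -0.13 for Hsp90ab1. All libraries share their scaling, and these values are descriptions over 9 points. Hspb1 and Hsp90ab1 had the lowest r on both measures.

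Among genes outside the list, the 8 whose log2 CPM over the 9 libraries was most like the members' mean profile, out of 11584 with at least 5 CPM, were Rmdn2 (r = 0.98), Hsp90b1 (0.95), Zfp882 (0.94), Stip1 (0.93), Dnajb4 (0.93), Ttc30a1 (0.92), Smim20 (0.91) and Chordc1 (0.91). Of the 8, 4 are chaperone genes of the lists described next: Hsp90b1, the HSP90 of the endoplasmic reticulum, Stip1, which bridges HSP70 and HSP90, Dnajb4, a J-domain protein, and Chordc1, an HSP90 co-chaperone. The profile carries the distance between HP and LP that the members were chosen for, which fixes part of this likeness. The share of listed genes among the 11584 was not counted. Rmdn2 averaged 10.6 ± 0.46 CPM in HA, 11.1 ± 0.25 CPM in HP and 9.65 ± 0.35 CPM in LP, and Hsp90b1 393 ± 26.5 CPM in HA, 427 ± 15.3 CPM in HP and 368 ± 28.8 CPM in LP (SD, n = 3). The ranking depended on how likeness was measured, since 2 of these 8 were among the top 8 by Spearman's rho and 0 when group means were taken out first.

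Related chaperone genes came from 11 lists with 103 genes, of which 99 passed the filter and 0 were called in any comparison by edgeR, DESeq2 or limma-voom. In HP against LP these tools called 0.0114%, 0.144% and 0.0114% of all genes. These lists were chosen with earlier results of these data known, so their counts beside the shares over all genes are a description. At an unadjusted p under 0.05, 23 of the 99 genes were higher and 3 lower in HP than in LP, where 3.12% of all genes were higher and 3% lower. In HA against HP 2 were higher and 2 lower, where 3% of all genes were higher and 2.42% lower, which is near that share. In HA against LP 10 were higher and 1 lower, where 3.06% of all genes were higher and 3.45% lower. Medians over the 99 genes were 0.05, -0.02 and 0.04 on the log2 scale in the same order. Among co-chaperones of HSP90, in HP against LP 13 of 18 had a higher estimate, 7 were higher and 0 lower at an unadjusted p under 0.05, and the median log2 fold change was 0.10 beside -0.002 over all genes. In HA against HP 4 of 18 were higher (median -0.04), against 50.9% of all genes, and in HA against LP 14 of 18 were higher (median 0.05), with 5 higher at an unadjusted p under 0.05. Stip1 had 309, 291 and 293 CPM in HA, 319.6, 308 and 299.7 CPM in HP and 270.1, 283 and 259 CPM in LP. Stip1 was thus above LP in every HA and HP library, with a log2 fold change of 0.14 ± 0.05 for HA over LP (SE, edgeR, adjusted p = 0.731).

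Chaperones of the endoplasmic reticulum, the compartment where 4-PBA is known to ease folding stress, were followed as a separate list. Of 15, 13 had a higher estimate in HP than in LP (median 0.12), 2 a higher one in HA than in HP (median -0.08) and 14 a higher one in HA than in LP (median 0.05). Hspa5, the HSP70 of that compartment known as BiP, had 602, 611 and 742 CPM in HA, 736, 760.4 and 712 CPM in HP and 618, 661 and 607 CPM in LP. Its HA replicates 1 and 2 lay at the level of LP and replicate 3 at that of HP, as for Hspa1b. For HA over HP its log2 fold change was -0.18 ± 0.08 (SE, edgeR, adjusted p = 0.84). Pdia4, a disulphide isomerase of the same list singled out after its values were seen, was lower in HA than in HP without replicate 3 of HA and LP (log2 fold change -0.40, edgeR, adjusted p = 0.0429) and missed the threshold with all libraries (-0.22, adjusted p = 0.84).

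Other HSP70 and HSP110 genes (6) did not share the members' direction, with 2 of 6 higher in HP than in LP (median -0.05), 4 of 6 in HA than in HP (0.07) and 3 of 6 in HA than in LP (0.11). Hspa4l, the HSP110 of brain and testis, had 288, 268 and 267 CPM in HA, 317, 295 and 308 CPM in HP and 272, 305 and 249 CPM in LP, so HA lay below HP without overlap (log2 fold change -0.16 ± 0.07, SE, edgeR, adjusted p = 0.84). Hspa1l, next to Hspa1a on the chromosome and named after its values were seen, averaged 1.49 ± 0.11 CPM in HA, 0.56 ± 0.24 CPM in HP and 0.57 ± 0.22 CPM in LP (SD, n = 3). Its HA libraries were above all others, with a log2 fold change of 1.42 ± 0.37 for HA over HP (SE, edgeR, adjusted p = 0.84). Over all genes, 5.92% lay above HP in every HA library. The levels of Hspa1l are below those of Hspa1a, so its estimate rests on few counts.

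Of 12 other J-domain genes 6 had a higher estimate in HP than in LP, 3 in HA than in HP and 5 in HA than in LP, with medians of -0.01, -0.02 and -0.05. Of 9 HSP70 co-chaperones the counts were 5, 4 and 4 in the same order, with medians of 0.007, -0.04 and -0.01. Bag3, a co-chaperone that HSF1 is known to induce, had 15.2, 16.8 and 25.8 CPM in HA, 14.3, 19.2 and 14.8 CPM in HP and 12.6, 14.3 and 16.9 CPM in LP, with HA replicate 3 high as for Hspb1. The 14 subunits of the chaperonin TRiC and of prefoldin were all higher in HP than in LP (median 0.06), 7 of 14 in HA than in HP (-0.002) and 12 of 14 in HA than in LP (0.06). Mitochondrial chaperones gave 4, 4 and 6 of 8, with medians of -0.006, 0.01 and 0.03.

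Small heat shock proteins other than Hspb1 passed the filter for 6 of 9 genes, of which 2 were higher in HP than in LP (median -0.20), 5 in HA than in HP (0.14) and 5 in HA than in LP (0.21). Cryab, the lens and glial crystallin of this family, had 84.7, 62.5 and 61.3 CPM in HA, 75.8, 80.4 and 73.1 CPM in HP and 48.3, 71.9 and 62.8 CPM in LP. Its HP libraries were above LP, and HA overlapped both. Hspb6 went the other way, with 5.571, 5.775 and 7.137 CPM in HA, 6.178, 6.013 and 5.125 CPM in HP and 6.575, 8.054 and 7.903 CPM in LP. Of the 6 genes, 1 lay above LP in every HP library (5.93% of all genes) and 2 lay below LP in every HP library (5.83%). Hspb8, a partner of Bag3, had 30.3, 34.8 and 49.9 CPM in HA, 33.5, 43.6 and 28.6 CPM in HP and 28.2, 34.1 and 44.3 CPM in LP, with replicate 3 of HA and LP highest.

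The heat shock factors themselves were measured at moderate levels. Of 5 genes in their list 4 passed the filter, and 1, 3 and 3 of them had a higher estimate in HP than in LP, HA than in HP and HA than in LP (medians -0.06, 0.05 and 0.005). Hsf1 averaged 36.1 ± 1.73 CPM in HA, 34.4 ± 1.47 CPM in HP and 36.0 ± 1.39 CPM in LP (SD, n = 3). Hsf2, a second factor that binds the same letters, had 31.9, 34.2 and 34.1 CPM in HA, 32.9, 35.2 and 33.2 CPM in HP and 31.2, 30.8 and 30.5 CPM in LP, so HA and HP both lay above LP (HA over LP 0.11 ± 0.06, SE, edgeR, adjusted p = 0.791). Hsbp1, the gene of their binding protein in the same list, had 251.7, 243.3 and 237.9 CPM in HA, 245.8, 236.6 and 229.2 CPM in HP and 253.3, 250.9 and 248.3 CPM in LP. Its HP libraries thus lay below LP without overlap. HSF1 is known to act through its protein, which these counts do not measure.

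Other genes induced by heat shock (5) had higher estimates for 2 of 5 in HP than in LP, 4 of 5 in HA than in HP and 4 of 5 in HA than in LP, with medians of -0.03, 0.05 and 0.03. Dedd2 among them had 38.5, 40.1 and 39.6 CPM in HA, 40.5, 36.2 and 37.1 CPM in HP and 31.7, 31.8 and 31.6 CPM in LP. LP libraries were nearly equal and below every other library, and the log2 fold change of HA over LP was 0.31 ± 0.06 (SE, edgeR, adjusted p = 0.404). The cold-inducible RNA-binding proteins, which are known to go down with warmth, were Cirbp and Rbm3, with medians of -0.11 in HP against LP, -0.03 in HA against HP and -0.14 in HA against LP. Cirbp had 64.1, 65.9 and 71.6 CPM in HA, 64.2, 66.3 and 68.0 CPM in HP and 82.4, 70.3 and 83.1 CPM in LP, with a log2 fold change of -0.23 ± 0.07 for HA over LP (SE, edgeR, adjusted p = 0.682), and HP lay below LP without overlap. Rbm3 averaged 32.1 ± 2.93 CPM in HA, 33.9 ± 3.21 CPM in HP and 33.4 ± 1.68 CPM in LP.

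**Figure D5:**
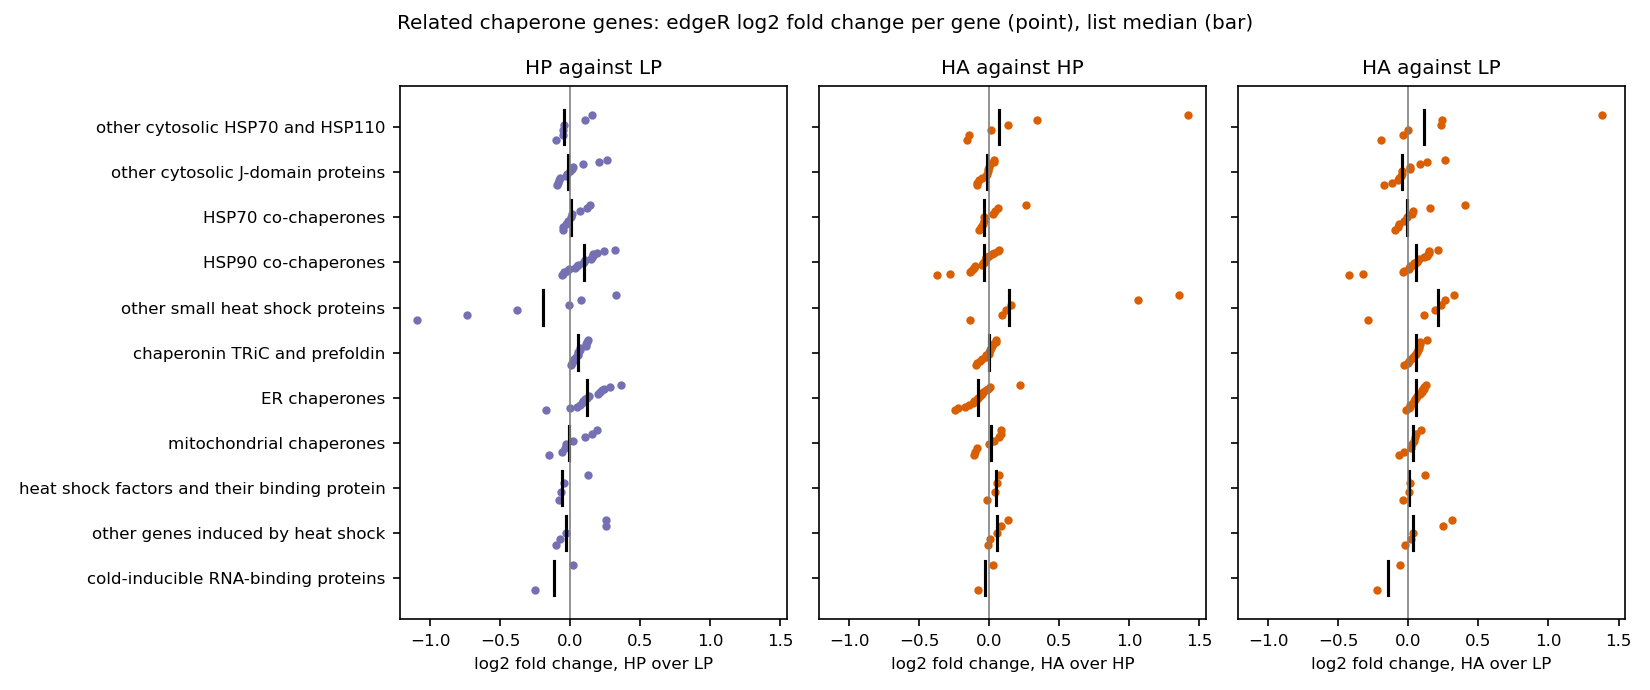
Log2 fold change of each tested gene of the 11 related lists (point) with the list median (bar), for HP over LP, HA over HP and HA over LP. Medians of HP over LP are highest for chaperones of the endoplasmic reticulum (0.12) and HSP90 co-chaperones (0.10), and Hspa1l, a gene with few counts, is the point at 1.42 in HA over HP.

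Immediate early genes, which respond quickly to neuronal activity and handling, also stood apart between the groups. Of 12, 10 had a higher estimate in HP than in LP (median 0.13), 12 in HA than in HP (0.32) and 12 in HA than in LP (0.42). The shares over all genes were 49.1%, 50.9% and 51.9% in the same order. Summed over the 12, the level was 325, 331 and 343 CPM in HA, 302, 263 and 280 CPM in HP and 268, 257 and 247 CPM in LP. HA was above both other groups without overlap, which is not the order of the members. By edgeR none was called, while DESeq2 called Fos, Junb and Nr4a1 higher in HA than in LP, where it called 0.129% of all genes. The part of handling, neuronal activity, striatal tissue in LP replicates 1 and 2 or body temperature in the level of the chaperones was not tested.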

How the data were processed

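Hypothalamic RNA libraries (3 µg input, NEBNext Ultra kit, strand not stated) were made by the authors, per the labels' protocols. Per the submitters' processing notes, the tools were featureCounts 1.5.0-p3, HISAT2 2.0.5 and DESeq2 1.16.1 and the build mm9, but all 10 members have the start and end of GENCODE M21 on GRCm38, the build in which coordinates are read here. The deposited read counts per gene are whole numbers, not normalized. The authors deposited FPKM values for the same libraries, which were used only to compare levels between genes. Dates stood in place of 27 gene names, none of them a member.

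Counts of all 9 libraries were fitted by group with the quasi-likelihood test of edgeR 4.0.16 in R 4.3.3, after filterByExpr and TMM scaling, with Benjamini-Hochberg adjustment over 17546 genes at 0.05. The dispersion edgeR found in common for all genes, 0.0199, corresponds to a 14.1% coefficient of variation between libraries. CPM values use the TMM-scaled totals, and log2 CPM a prior count of 2. DESeq2 1.42.0, limma-voom (limma 3.58.1), other scaling, no filter, left-out libraries and a replicate block were alternatives. Replicate libraries differed by more than sampling noise (chi-square per degree of freedom 4.73 to 25.8), so none was merged. The scripts were tested on simulated counts.

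The members and all lists were chosen with earlier results of these data known. Named beside the members are the 3 genes of highest mean CPM of a list, where a result turns on them, Hspa4l, Bag3, Hsf1, Hsf2, Cirbp, Rbm3 and Hspa5, and the 8 genes most like the members' profile. Same-numbered libraries of HA and LP deviated together from their group means (r = 0.256, 0.144 and 0.486). So did HA replicate 1 with LP replicate 2 (0.182) and HA replicate 2 with LP replicate 1 (0.251). Pairs of replicate 3 with replicate 1 or 2 of the other group had r from -0.367 to -0.236. The values of HA and LP thus set replicate 3 apart and do not single out a shared number. Same-numbered libraries of HA and HP (0.082, 0.004 and 0.118) and of HP and LP (0.137, -0.028 and 0.159) did not deviate together throughout. The labels do not say what the numbers share.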

Additional observations from a re-analysis of the deposited data

How the results depend on the processing

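No member was called by edgeR in any left-out-library fit, and the blocked fits changed no member's call. With a replicate block the genes called were 4 in HP against LP, where the unblocked fit gave 2. Genes called over all genes in HP against LP (2) became 32 with DESeq2, 1 with library totals, 53 without the filter, 4 with the 6 libraries alone, 37 without replicate 3 of HA and LP and 1 to 21 without single libraries. In HA against HP (2) they became 8 with DESeq2, 5 without the filter, 10 without that pair and 1 to 9 without single libraries; in HA against LP (0; 1142 at an unadjusted p under 0.05) they became 27, 41, 23 and 0 to 14, and 1 with the 6 libraries alone. Members called in HA against LP were 2 with DESeq2 and 1 without the filter; in HP against LP, whose values chose the members so that calls there carry no evidence, they were 2 and 2. Members higher in HA than in HP (1) became 3 with library totals, 2 without the filter and 1 to 3 without single libraries, and non-overlapping members 1 with library totals; 1 related gene, Pdia4, was called without the pair. Of the 8 most alike genes 2 stayed by Spearman's rho and 0 by deviations from group means.

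Signs turned as follows for HA over HP. With library totals Dnajb1 stood at 0.018 and Hsp90ab1 at 0.014, and without the filter Dnajb1 at 0.001. Without single libraries the ranges were -0.062 to 0.058 for Dnajb1, -0.048 to 0.027 for Hsp90ab1, -0.084 to 0.007 for Hsph1, -0.561 to 0.087 for Hspa1a and -0.403 to 0.588 for Hspb1. Without the pair Hsp90ab1 stood at 0.018 and Hspb1 at -0.402, while Hspa1a kept its sign at -0.563. Within Hg13 the differences were 0.387 for Hspa1a, 0.1 for Hspa1b, 0.084 for Hsph1, 0.146 for Dnajb1, 0.01 for Dnaja1 and 0.002 for Hsp90ab1, and within Hg43 -0.342 for Hspb1. For HA over LP, Hspa1b ranged from -0.066 to 0.382 without single libraries and was -0.048 without the pair. The cause was not tested. Of the members' values under alternatives, taken over all comparisons, 24 turned sign, 7 newly passed the threshold and 515 did neither. That tally includes HP against LP, whose values chose the members, so passes there carry no evidence. Hspa1a rests on 46 to 129 counts per library, which limits its precision.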
